A study of Mus musculus with 2 samples.

Results

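The thioredoxin reductases Txnrd1, Txnrd2 and Txnrd3, the thioredoxins Txn1 and Txn2, and the glutaredoxins Glrx, Glrx2, Glrx3 and Glrx5 were followed in single-cell RNA sequencing of mouse bone marrow, as 9 of the 32285 genes counted in each library. They were taken by gene symbol. These members and the lists of related genes used below were chosen with earlier results of these data known. The study holds 2 libraries of Lineage- cKit+ cells, the stem and progenitor fraction, sorted from femora and tibiae of C57BL/6 mice, frozen and thawed before droplet capture. The knockout library came from Trsp f/f:Mx1-Cre mice, in which the interferon-inducible Mx1 promoter drives Cre. This removes Trsp, which encodes the selenocysteine tRNA, from blood-forming and other interferon-responsive cells. Controls were Trsp f/f mice, which carry the floxed alleles and no Cre. Both received 3 injections of 500 µg of pI-pC, the double-stranded RNA that induces the Mx1 promoter, starting 7 weeks after birth, and both were sampled 9 weeks after the last one. With 1 library per genotype there was no replicate and no test, so genotype and library cannot be told apart. The sources used here do not give how many mice a library holds, and every interval below is a 95% counting interval that leaves out variation between animals.

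Both systems carry electrons from NADPH to protein disulfides. Thioredoxin reductases reduce thioredoxins, which in turn reduce peroxiredoxins, ribonucleotide reductase and other partners. Glutaredoxins are reduced by glutathione, and the monothiol members bind iron-sulfur clusters and pass them on. Txnrd1 and Txn1 serve the cytosol and nucleus, Txnrd2 and Txn2 serve mitochondria, and Txnrd3 is best known from testis. Glrx is cytosolic, Glrx2 has a mitochondrial form, Glrx3 handles cytosolic iron-sulfur clusters, and Glrx5 does so in mitochondria, where it is needed for heme synthesis in erythroid cells. Thioredoxins and glutaredoxins are ordinary proteins, whereas all 3 reductases are selenoproteins: a TGA codon near the end of the message is read as selenocysteine by the tRNA that Trsp encodes, and that residue is needed for catalysis.

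The selenocysteine codon is what ties the reductases to the deleted gene, so the last 30 coding bases are shown, from GENCODE vM21 transcripts on mm10, with the TGA in capitals. In each it is followed by a glycine codon and then the stop codon.
Txnrd1: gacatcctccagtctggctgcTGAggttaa
Txnrd2: gagcctactgtgactggttgcTGAggctaa
Txnrd3: gacattactcagaaaggctgcTGAggctag
These codons lie at chr10:82896037-82896039, chr16:18477772-18477774 and chr6:89674789-89674791, all on the plus strand. The other 6 members have no such codon and carry a redox motif instead, shown with its 4 codons in capitals. In Txn1, Txn2, Glrx and Glrx2 the first and the last of these codons are cysteine (TGT or TGC). In Glrx3, which has 2 such sites, and in Glrx5 the last one is serine, which makes them monothiol.
Txn1: gctacgtggTGTGGACCTTGCaaaatgatc
Txn2: gcacagtggTGTGGCCCCTGCaagatccta
Glrx: aagcccaccTGCCCCTACTGCagaaagacc
Glrx2: aaaacatccTGCTCTTACTGTtccatggcc
Glrx3, first site: gaaccacgcTGTGGTTTCAGCaagcagatg
Glrx3, second site: gaagcaaaaTGTGGATTCAGCaaacaaatt
Glrx5: cagccccagTGCGGCTTCAGCaacgccgtg

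On mm10, with GENCODE vM21 gene bounds, Txnrd1 lies at chr10:82833951-82897712, Txnrd2 at chr16:18426384-18479073 and Txnrd3 at chr6:89643988-89675529, all on the plus strand. Txn1 is at chr4:57943373-57956411 and Txn2 at chr15:77915047-77929006, both on the minus strand. On the plus strand are Glrx at chr13:75839868-75850154, Glrx2 at chr1:143716338-143749676, Glrx3 at chr7:137437614-137468594 and Glrx5 at chr12:105032688-105042906. Txnrd1 overlaps Eid3 on its own strand and Gm38560 on the other. The sources used here do not give whether counting used strand, so reads in these overlaps may be assigned to either gene.

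The knockout library held 11556 barcodes and 152092210 UMIs (unique molecules), the control library 14372 barcodes and 184683653 UMIs. After filtering, 6654 knockout and 8046 control cells were kept, with a median of 20764 and 20352 UMIs. Mitochondrial UMIs had a median of 4.62% and 3.78%, and 10 kept barcodes occurred in both libraries. Trsp itself was not analysed here. Gpx1, the abundant selenoprotein glutathione peroxidase, was at 253 CPM (its UMIs scaled to one common total, as for every CPM value here) in knockout cells and 1508 CPM in control cells. Clusters were named from marker genes, and a class was compared between libraries where each held at least 100 cells: HSC-like (stem cell), multipotent or lymphoid-primed, neutrophil progenitor-like, maturing neutrophil-like, monocyte progenitor-like, dendritic cell-like, and basophil or mast-like. These 7 classes had higher median UMIs per cell in knockout cells, for example 31083 against 25151 in monocyte progenitor-like cells. A low-UMI cluster with no marker among its leading genes held 1308 knockout and 179 control cells, and it is in none of the 7 classes.

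Levels of the measured members, all but Txnrd2 and Txnrd3, differed between classes more than between genotypes. Among the 7 compared classes Txnrd1 was highest in the most immature cells, whereas Txn1 and Glrx were highest in the granulocyte branch. Across the 7 classes the highest Txnrd1 level was 2.57 times the lowest in knockout cells and 3.66 times the lowest in control cells. For Glrx these spans were 3.47 and 3.16, for Txn1 2.27 and 2.09, for Glrx5 2.64 and 2.28, and for Glrx2 2.03 and 1.94. Of the measured members Txn2 and Glrx3 varied least, for Glrx3 by 1.65 times in knockout cells and 1.48 times in control cells. In control cells Txnrd1 ran from HSC-like down through multipotent or lymphoid-primed, monocyte progenitor-like, basophil or mast-like, neutrophil progenitor-like and maturing neutrophil-like to dendritic cell-like cells, and only the first 2 and the next 2 of these had overlapping intervals as neighbours. In knockout cells the first 4 of that order overlapped, with multipotent or lymphoid-primed cells on top, neutrophil progenitor-like and dendritic cell-like cells overlapped next, and maturing neutrophil-like cells were the lowest.

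**Figure D1:**
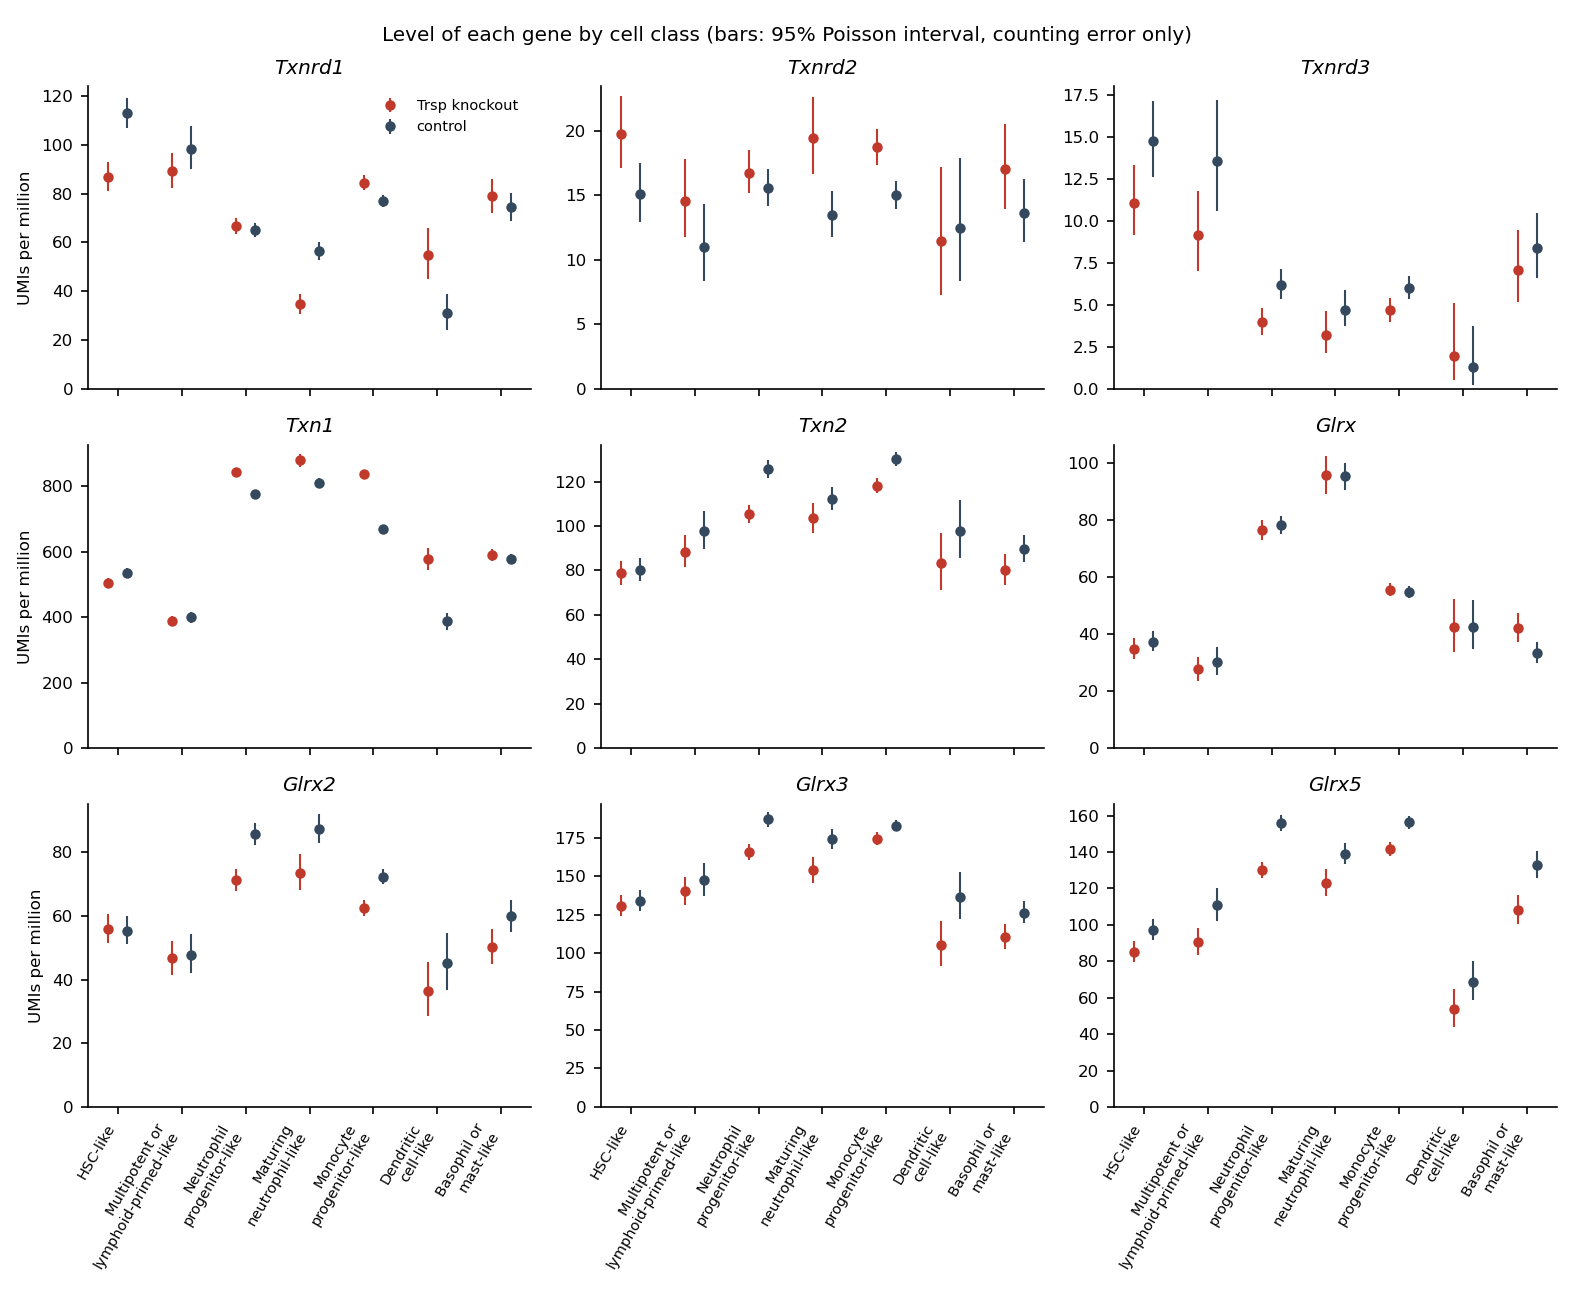
Level of each of the 9 genes in CPM (linear axes from 0) in the 7 compared classes, knockout in red to the left of control in dark blue, bars giving the 95% Poisson interval of the summed count. Glrx and Txn1 peak in maturing neutrophil-like cells in both libraries, and the Txnrd1 points of the genotypes lie apart in HSC-like, maturing neutrophil-like, dendritic cell-like and, by less, monocyte progenitor-like cells.

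Over all kept cells, none of the members differed by 1.5-fold or more between the genotypes, the size taken here as a change. Of the 9 members, 7 were measured, meaning at least 20 CPM in 1 library and 50 UMIs in both together, and 0 of these 7 passed 1.5-fold, against 1.62% of the 6094 genes measured. The median log2 ratio of knockout over control was −0.10 over the 7 members and 0.08 over all measured genes. Txnrd1 was at 84.0 CPM in knockout cells and 77.6 CPM in control cells, a log2 ratio of 0.11 (0.08 to 0.15). Over the 7 compared classes alone, weighted by their control shares, it was −0.08, of the other sign. That value also leaves out the unnamed cells and the small classes. Txn1 was at 755 and 668 CPM (log2 0.18), and the other 5 measured members lay between −0.19 for Glrx2 and −0.04 for Glrx.

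By class, 2 of the 49 measured member-class pairs passed 1.5-fold, against 2.91% of all 41992 gene-class pairs, and both were Txnrd1. It was higher in dendritic cell-like cells and lower in maturing neutrophil-like cells. The share of all measured genes past 1.5-fold was 7.95% in dendritic cell-like and 2.92% in maturing neutrophil-like cells. It was 2.11% in multipotent or lymphoid-primed, 2.49% in basophil or mast-like, 1.73% in monocyte progenitor-like, 1.09% in HSC-like and 2.16% in neutrophil progenitor-like cells, where 0 of 7 measured members passed in each. Relative to the median of all genes, which was 0.12 in neutrophil progenitor-like and 0.11 in maturing neutrophil-like cells, more of the family would read as lower.

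**Figure D2:**
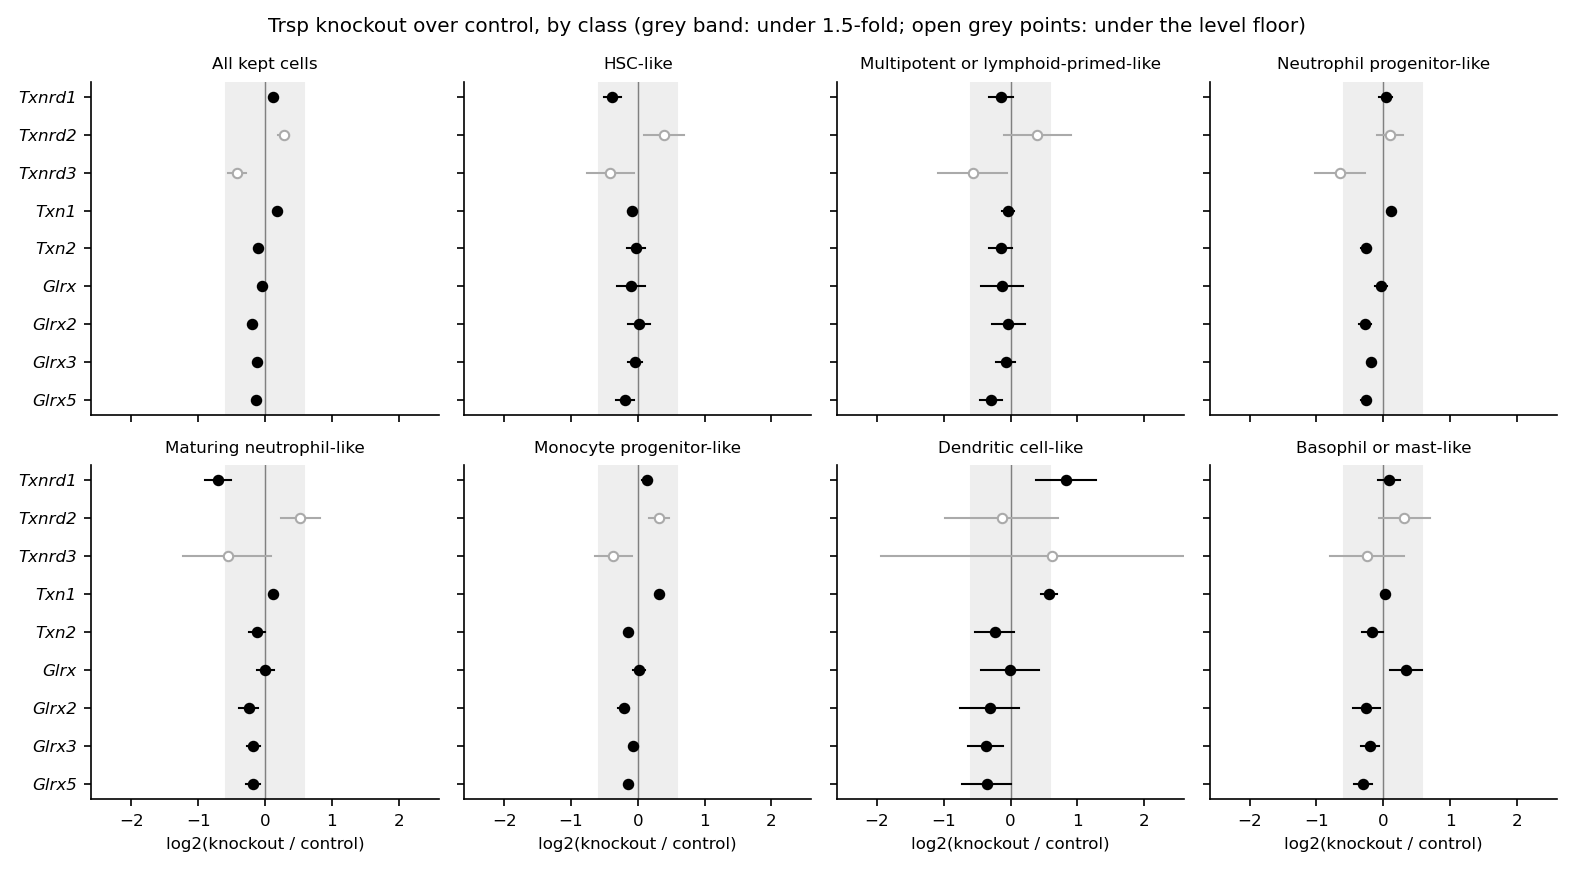
Log2 ratio of knockout over control for each member, over all kept cells and in each compared class, with 95% counting intervals; the grey band spans less than 1.5-fold and open grey points are below the level floor. Only the Txnrd1 points of maturing neutrophil-like (−0.70) and dendritic cell-like cells (0.82) leave the band among filled points.

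Txnrd1, the cytosolic reductase, was the member whose ratio varied most between classes. In HSC-like cells it was at 86.9 CPM (892 UMIs) in the knockout and 113 CPM (1316 UMIs) in the control, a log2 ratio of −0.38 (−0.50 to −0.26), short of 1.5-fold. Only 1.42% of the genes measured there had a lower ratio, but with each cell labelled from its own markers the value was −0.12. In maturing neutrophil-like cells it fell to 34.6 CPM (301 UMIs) in the knockout, against 56.4 CPM (934 UMIs) in the control, a log2 ratio of −0.70 (−0.90 to −0.51). In dendritic cell-like cells, which present antigen, it rose to 54.7 CPM (110 UMIs) in the knockout, against 30.9 CPM (72 UMIs) in the control, a log2 ratio of 0.82 (0.38 to 1.27). The remaining 4 classes lay between −0.14 in multipotent or lymphoid-primed cells and 0.14 in monocyte progenitor-like cells, and the value of 0.03 in neutrophil progenitor-like cells lay between −0.13 and 0.35 under other clusterings and −0.09 with median-of-ratios scaling.

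Both calls had limits. The dendritic cell-like value was 0.57 with predicted doublets kept and 0.52 with each cell labelled from its own markers, under 1.5-fold in both. That per-cell labelling gave 0.29 in maturing neutrophil-like cells, where 56 of its 100 knockout cells came from the low-UMI cluster. It shared only 24 knockout and 61 control cells with the cluster-based class, which held 383 and 856. Most cells of the cluster-based class were thus not given that name by their own markers. Beside the neutrophil value, the summed markers of that class stood at 6650 CPM in knockout cells and 4966 CPM in control cells, those of neutrophil progenitors at 40313 and 43420 CPM, the late markers Retnlg at 0.23 and 16.9 CPM and Mmp8 at 0 and 1.15 CPM, and summed eosinophil markers at 7.48 and 39.8 CPM. Neutrophil progenitor-like cells held less of both neutrophil lists. Their maturing neutrophil markers were at 697 CPM in knockout and 815 CPM in control cells, and their neutrophil progenitor markers at 29282 and 32975 CPM. In dendritic cell-like cells the summed dendritic markers were at 25766 and 26387 CPM, with all 8 listed markers above 50 UMIs. Of other cell types there, summed neutrophil progenitor markers were at 399.5 CPM in knockout and 581 CPM in control cells, HSC markers at 38.3 and 69.1 CPM, and monocyte progenitor markers at 3763 and 4069 CPM. Whether these differences in make-up bear on Txnrd1 was not tested.

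Clusters that shared a class name differed in their Txnrd1 ratio. Among the 15 clusters with at least 100 cells of each library, the Txnrd1 interval lay above 0 in 6 and below 0 in 6. In monocyte progenitor-like cluster 3 it was at 105 CPM in knockout cells and 68.9 CPM in control cells (log2 0.60), while in cluster 1 of that name it was at 60.8 CPM in knockout cells and 85.9 CPM in control cells (−0.50). The basophil or mast-like pair read 0.42 in cluster 11, where the megakaryocyte genes Pf4 and Itga2b were among the leading genes, and −0.62 in cluster 10. The neutrophil progenitor-like pair read 0.35 and −0.44, in clusters 6 and 8.

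The clusters on the 2 sides of 0 differed in the share of G2 and M phase mRNA, summed over 10 genes such as Mki67, Top2a and Ccnb1, a list and a comparison chosen after these ratios were seen. In control cells it was 1402 CPM or more in each of the 6 clusters with the interval above 0 and 607 CPM or less in each of the 6 with the interval below 0. The clusters were built from variable genes, among which such phase genes were not left out.

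**Figure D3:**
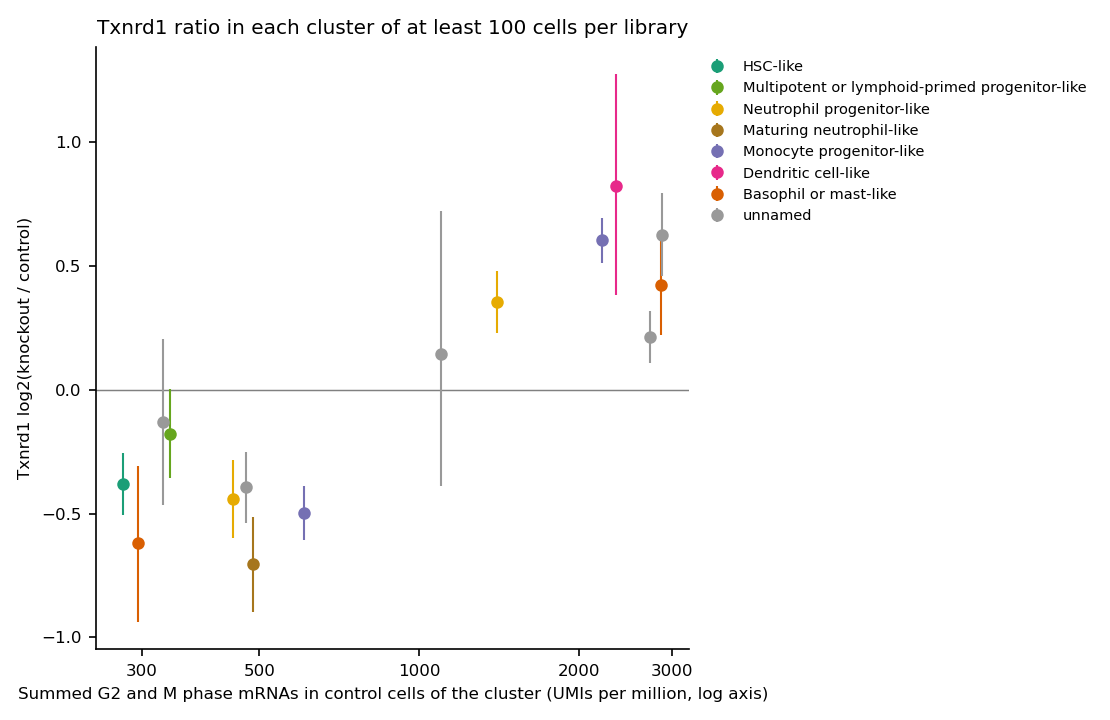
Txnrd1 log2 ratio of knockout over control with its 95% counting interval in each of the 15 clusters, against the summed G2 and M phase mRNAs in the control cells of that cluster (log axis), coloured by class name. Clusters below 700 CPM lie under 0 and those above 1400 CPM lie over 0.

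To give the levels along that share, each class was cut by it into 3 equal groups of cells (tertiles), over both libraries together. These are the cells of the same clusters, so the tertiles describe the pattern more finely and are no second observation of it. In monocyte progenitor-like cells Txnrd1 was at 60.1, 75.1 and 109 CPM in the knockout from the lowest to the highest tertile, and at 81.2, 88.5 and 64.5 CPM in the control. Its log2 ratio was −0.43 (−0.58 to −0.29), −0.24 (−0.36 to −0.12) and 0.76 (0.65 to 0.87). Thus the knockout was below the control in the less mitotic cells and above it in the most mitotic ones, and Txnrd1 rose past 1.5-fold in the highest tertile, where 2.28% of all measured genes did so.

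Neutrophil progenitor-like cells had the same order, with knockout levels of 51.2, 68.3 and 77.1 CPM, control levels of 70.8, 64.2 and 61.2 CPM, and ratios of −0.47, 0.09 and 0.33. Basophil or mast-like cells read −0.46, −0.02 and 0.35. The ratio did not cross 0 in HSC-like cells, which read −0.47, −0.42 and −0.28. Maturing neutrophil-like cells fell by about as much in every tertile (−0.69, −0.76 and −0.68), where 1.1%, 0.924% and 0.97% of measured genes were lower by 1.5-fold. Multipotent or lymphoid-primed cells read −0.27, −0.15 and −0.05, likewise without crossing 0, and the dendritic cell-like tertiles, with 11 to 53 UMIs each, read 0.73, 0.38 and 1.48, the last past 1.5-fold as were 8.94% of genes higher there.

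**Figure D4:**
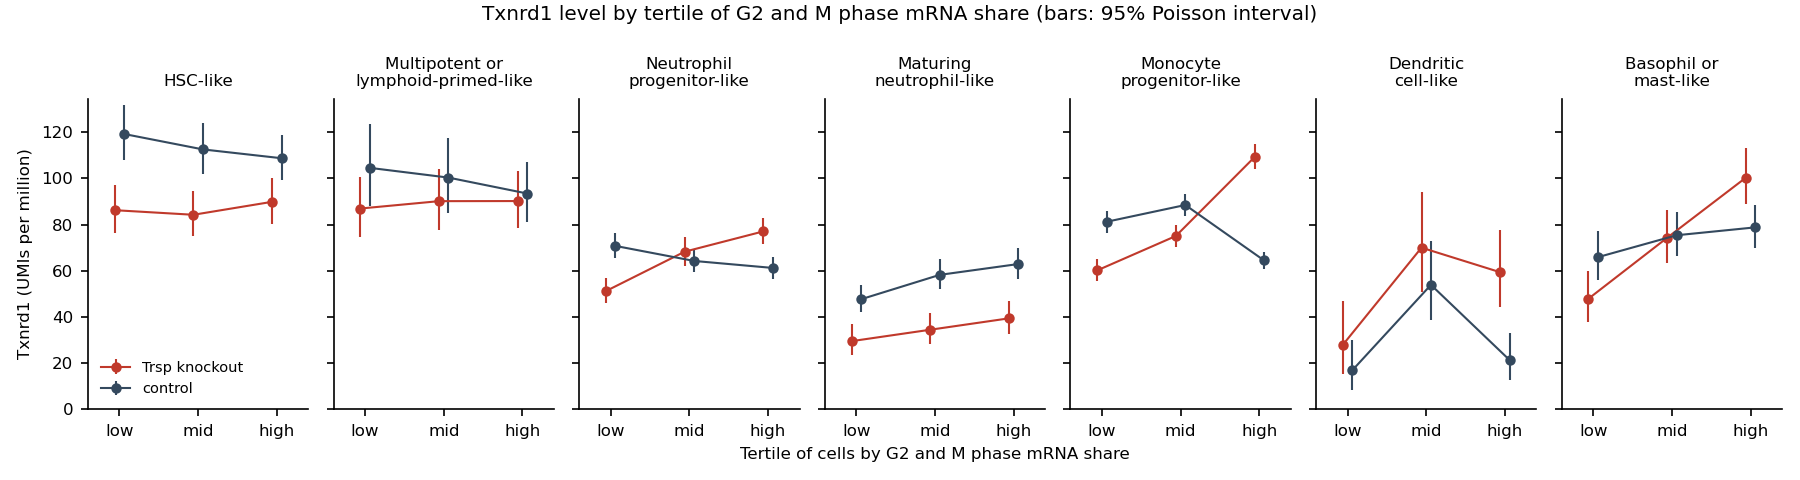
Txnrd1 level (CPM, with 95% Poisson intervals) in the lowest, middle and highest tertile of G2 and M phase mRNA share within each class, knockout in red drawn left of control in dark blue. The lines cross in monocyte progenitor-like, neutrophil progenitor-like and basophil or mast-like cells and do not cross in HSC-like or maturing neutrophil-like cells. The cuts were set within each class, so tertiles of different classes are not of like mitotic share.

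These cuts are ranges on a continuous score: in monocyte progenitor-like cells 396 of 3002 cells lay within 10% of a cut. Cells in the highest tertile were also deeper, with a median of 39168 UMIs in knockout and 30587 UMIs in control cells, against 26994 and 21943 UMIs in the lowest. After each cell was thinned to 10000 UMIs before the split, which left out 11 knockout and 24 control cells, the 3 ratios were −0.46, −0.14 and 0.73. A median monocyte progenitor-like cell of the highest tertile held 11241 (knockout) and 14190 (control) CPM of neutrophil progenitor markers, and one of the lowest held 11418 and 13251. Cut by 12 S phase genes instead, monocyte progenitor-like cells read 0.20, 0.34 and −0.15, so the highest tertile of that split was on the other side of 0.

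NRF2 drives genes against oxidants and electrophiles, and Txnrd1 is a textbook target of it. The list of its other targets had median ratios in the same order in monocyte progenitor-like cells. Among monocyte progenitor-like cells, 3 of 12 measured ones rose past 1.5-fold in the lowest tertile, 6 of 12 in the middle and 14 of 16 in the highest, against 0.983%, 1.19% and 2.28% of all genes, with medians of 0.41, 0.64 and 1.41, against all-gene medians of 0.08, 0.08 and 0.07. The 16 are not the same set as the 12, since a target enters where either library reaches 20 CPM. A target low in the control can enter through its knockout level alone, and it then tends to count as risen. These counts and medians therefore do not compare the tertiles like for like. Gclm, the modifier subunit for glutathione synthesis, was at 87.5, 155 and 341 CPM in knockout and 47.8, 53.8 and 54.2 CPM in control cells. In HSC-like cells 0 of 12 measured targets passed 1.5-fold in any tertile, where 1.82%, 1.47% and 1.17% of genes were higher, and the list medians were −0.01, 0.11 and 0.07. Under the level floor in all HSC-like cells, Pir had 25 UMIs in the knockout and 4 in the control, and Me1 14 and 3. Their intervals lay above 0, while those of the other listed targets under the floor spanned 0. Gpx1, by contrast, was lower by the same amount throughout, at −2.52, −2.48 and −2.54 in monocyte progenitor-like cells. Txnrd1 and this list did not go together throughout: in the lowest and the middle monocyte progenitor-like tertile Gclm was above its control and Txnrd1 below it. In maturing neutrophil-like cells, where Txnrd1 read −0.70, the list median was 0.42, with 3 of 12 targets past 1.5-fold.

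Of 3 annotated Txnrd1 promoters in RefSeq (GRCm38.p6, from 250 bases before to 50 after each start), 1 holds the antioxidant response element core TGACNNNGC, searched on both strands. That core occurs in 12.4% of all 32851 such promoters, and in none of the other 12 belonging to the family. The match, TGACAAAGC on the other strand, begins 92 bases before the start, and the window shown (chr10:82859094-82859144, plus strand, core in capitals) holds no AP-1 motif TGACTCA, which shares the first letters of the core.
Txnrd1 promoter: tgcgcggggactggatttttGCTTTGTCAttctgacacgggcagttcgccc

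Txnrd2 and Txnrd3 were below the 20 CPM floor in all 7 compared classes, so they have no call, but they leaned in opposite directions. Txnrd2, the mitochondrial reductase, was at 18.9 CPM (2619 UMIs) in knockout cells and 15.5 CPM (2587 UMIs) in control cells over all kept cells, a log2 ratio of 0.28 (0.20 to 0.36). It lay above 0 in 6 of 7 classes, up to 0.53 in maturing neutrophil-like cells (19.4 and 13.5 CPM), with the interval above 0 in 3. Txnrd3 was at 5.76 CPM (799 UMIs) in knockout cells and 7.70 CPM (1282 UMIs) in control cells, −0.42 (−0.55 to −0.29). It was below 0 in 6 of 7 classes and most abundant in HSC-like cells, at 11.1 and 14.8 CPM. The exception for both was the dendritic cell-like class, with 23 and 29 UMIs of Txnrd2 and 4 and 3 UMIs of Txnrd3, too few to tell a direction.

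As selenoproteins the reductases stood apart from most of that class. Where the selenocysteine codon sits in the message differs between selenoproteins, and it is a general property of mRNAs that a stop codon well upstream of the last exon junction can mark them for decay. In the transcript used for each gene, the codon of Txnrd1 and of Txnrd3 lies in the last exon. That of Txnrd2 lies 83 bases before the last junction. Among measured selenoprotein genes, 4 have the codon in the last exon, and their log2 ratios over all kept cells were −0.14 for Selenos, 0.04 for Sephs2, 0.11 for Txnrd1 and 0.23 for Selenoi. The 10 measured genes with the codon before the last junction lay between −3.34 for Selenoh and −0.44 for Msrb1, with a median of −1.69, and 8 of them fell by 1.5-fold or more, against 0.607% of all measured genes. The 2 that did not, Msrb1 and Selenok, have the codon 34 and 5 bases before the junction. Txnrd2, below the level floor over all kept cells, did not share this pattern there, being higher at 83 bases, where Selenof at 78 bases read −0.73. In early erythroid-like cells, the only named class in which Txnrd2 cleared the floor, it was lower in the knockout, as given below. Txnrd3, also below the floor, has its codon in the last exon and read −0.42, outside the range of the 4 measured genes of that kind. The grouping by codon position was made with the ratios in view and was not tested.

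**Figure D5:**
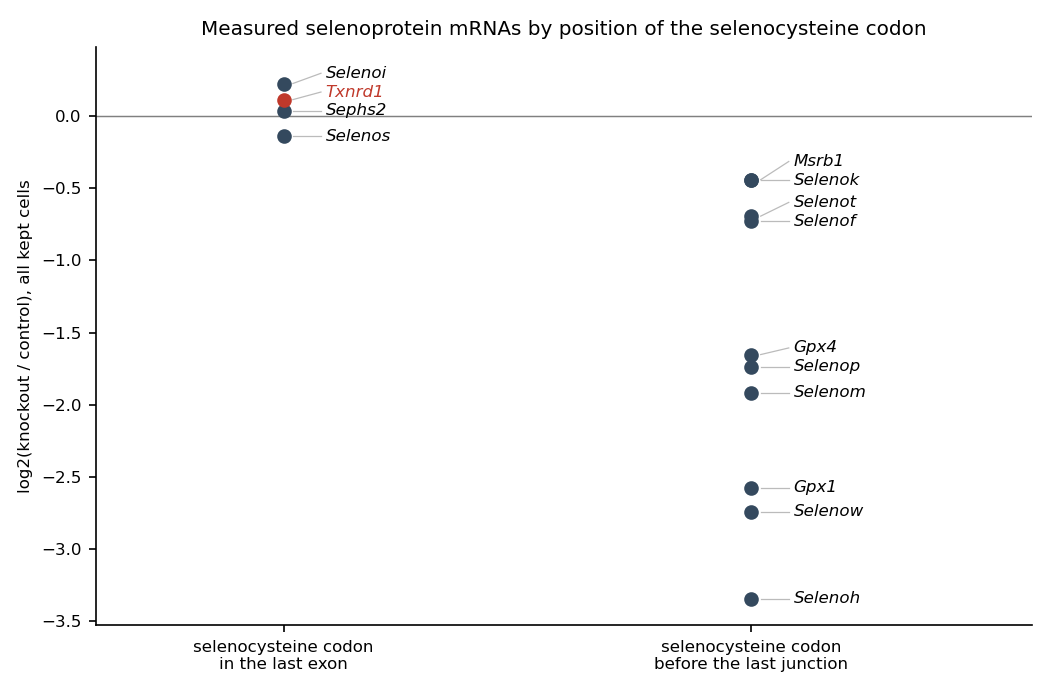
Log2 ratio of knockout over control over all kept cells for the 14 measured selenoprotein genes, split by whether the selenocysteine codon lies in the last exon (left) or before the last exon junction (right); Txnrd1 is in red. The left group spans −0.14 to 0.23 and the right group −3.34 to −0.44.

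Txn1, the cytosolic thioredoxin, was nearest to a change in dendritic cell-like and monocyte progenitor-like cells. In dendritic cell-like cells it was at 577 CPM (1159 UMIs) in the knockout and 387 CPM (901 UMIs) in the control, a log2 ratio of 0.58 (0.45 to 0.70), just under 1.5-fold, and 0.61, past it, with the stricter cell filter. In monocyte progenitor-like cells it was at 837 and 671 CPM, 0.32 (0.30 to 0.34), which was above the ratio of 92.8% of the genes measured there. HSC-like cells had 505 CPM in the knockout and 536 CPM in the control (−0.09, −0.14 to −0.03), and multipotent or lymphoid-primed cells 388 and 399 CPM. Unlike Txnrd1, it did not follow the mitotic share in monocyte progenitor-like cells, where the tertiles read 0.30, 0.24 and 0.39. Its order of the 7 compared classes was led by maturing neutrophil-like cells at 879 CPM in the knockout and 810 CPM in the control.

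Txn2, its mitochondrial counterpart, was below 0 in all 7 classes, from −0.26 in neutrophil progenitor-like cells (105 CPM in the knockout and 126 CPM in the control) to −0.02 in HSC-like cells (78.8 and 80.0 CPM). Its interval was below 0 in 4 of them. None reached 1.5-fold.

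The glutaredoxins were flat or slightly lower in the knockout, and none passed 1.5-fold in a compared class. Glrx5, the mitochondrial iron-sulfur glutaredoxin, was the most uniform: its log2 ratio was below 0 in all 7 classes, from −0.35 in dendritic cell-like to −0.14 in monocyte progenitor-like cells, with the interval below 0 in 6. In neutrophil progenitor-like cells it was at 130 CPM in the knockout and 156 CPM in the control (−0.26, −0.33 to −0.20), and 4.33% of measured genes had a lower ratio. It was also below 0 in each of the 15 clusters, with the interval below 0 in 11. In HSC-like cells, its values were 85.1 and 97.2 CPM (−0.19, −0.32 to −0.06).

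Glrx3, the cytosolic monothiol glutaredoxin, was below 0 in all 7 classes too, from −0.37 in dendritic cell-like cells (105 CPM in the knockout and 137 CPM in the control) to −0.04 in HSC-like cells (131 and 134 CPM). Glrx2 was below 0 in 6 of 7, with 71.2 CPM in the knockout and 85.7 CPM in the control of neutrophil progenitor-like cells (−0.27). In HSC-like cells it was at 56.0 and 55.4 CPM, a ratio of 0.02 whose sign turned under both other scalings. In the neutrophil branch the differences of Glrx2, Glrx3 and Glrx5 were each smaller than 1.5-fold.

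Glrx, the classical dithiol form, had the widest span of the glutaredoxins over the 7 compared classes. It was at 95.6 CPM in the knockout and 95.2 CPM in the control in maturing neutrophil-like cells, at 76.5 and 78.2 CPM in neutrophil progenitor-like cells, and at 55.6 and 54.8 CPM in monocyte progenitor-like cells. The next classes, dendritic cell-like, basophil or mast-like and HSC-like, overlapped in their intervals at 34.7 to 42.3 CPM in the knockout and 33.3 to 42.5 CPM in the control. Multipotent or lymphoid-primed cells had the least, at 27.5 and 30.1 CPM. Only in basophil or mast-like cells did the interval exclude 0, at 42.0 CPM in the knockout and 33.3 CPM in the control (log2 0.34, 0.10 to 0.58).

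Most of the measured genes that work with the family did not pass 1.5-fold either, as was so for most of all measured genes. Of 20 measured thioredoxin partners, Txnip alone passed 1.5-fold over all kept cells, where 1.62% of all 6094 measured genes did so. This inhibitor of thioredoxin rose to 122 CPM in the knockout, against 60.3 CPM in the control (log2 1.02). Prdx1, a peroxiredoxin reduced by thioredoxin, was at 481 and 367 CPM (0.39), and Prdx2 at 307 and 298 CPM (0.04). Rrm1 and Rrm2, the subunits of ribonucleotide reductase, read 0.28 and 0.04. Among 7 measured glutathione genes Gclm and Gclc, the subunits of glutamate-cysteine ligase, rose (1.41 and 0.82), while glutathione reductase Gsr was at 231 CPM in the knockout and 162 CPM in the control (0.51). In monocyte progenitor-like cells Gsr did pass, at 256 and 145 CPM (0.82). Iron-sulfur assembly had 0 of 21 measured genes past 1.5-fold with a median of −0.08, near that of the glutaredoxins, and NADPH supply had 0 of 9 with a median of 0.09, against 0.08 over all genes. At the all-gene share of 1.62%, such counts of 0 do not set these lists apart. Some genes of these lists under the level floor, and so not counted, were higher in the knockout over all kept cells. Slc7a11 was at 19.2 CPM in the knockout and 1.69 CPM in the control, and Srxn1 at 12.8 and 2.08 CPM. Gstp1 was at 14.2 and 2.19 CPM, Ggt5 at 7.85 and 4.58 CPM, and Me1 at 1.28 and 0.0781 CPM. Others under the floor, such as Msrb2 at 14.9 and 16.0 CPM, differed by less than 1.5-fold. In monocyte progenitor-like cells G6pdx, which feeds NADPH into both systems, rose to 89.6 CPM in the knockout, against 57.7 CPM in the control (0.64).

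Gene levels most like each measured member were found over 14 points, the 7 classes in each of the 2 libraries, which share cells, depth and library and so are a description. For Txnrd1 the highest Pearson r of log2(CPM + 1) was with Snhg1 (0.91), Prdx2 (0.91) and Atm (0.90). For Txn1 it was with Gda, Aldoa and Atpif1 (0.96, 0.96 and 0.95), and for Txn2 with Atp5c1, Zbtb8os and Arl6ip4 (0.96, 0.96 and 0.95). Glrx was most like Dmkn, Sem1 and Ndufb3 (0.97 each). Glrx2 was most like Ndufb2 (0.99), Ebna1bp2 (0.98) and Micos13 (0.98). For Glrx3 the genes were Pinx1, Med29 and Mrps30 (0.96, 0.95 and 0.95), and for Glrx5 Mrpl46, Echs1 and Mrps18b (0.97 each).

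Early erythroid-like cells were outside the comparison, with 115 knockout and 87 control cells. Their Glrx5 and Txnrd2 levels were above those of all compared classes in both libraries, and their Txnrd1 and Txn1 levels in the knockout only. Glrx5 was at 497 CPM in the knockout and 556 CPM in the control there, more than in any other named class. Txnrd1 was at 150 CPM (769 UMIs) in the knockout and 53.9 CPM (171 UMIs) in the control, a log2 ratio of 1.47 (1.23 to 1.72), and its 3 tertiles of mitotic share read 0.76, 1.34 and 2.09. Txn1 was at 1072 and 599 CPM (0.84). Txnrd2 was at 42.4 CPM in the knockout and 64.9 CPM in the control (−0.61), the only named class in which it cleared the level floor. Beside these values, summed neutrophil progenitor markers in the class were at 238 CPM in knockout and 1862 CPM in control cells, and summed late erythroid markers at 4347 and 3211 CPM, and their part in the differences was not tested.

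Of the other small classes, eosinophil-like cells (78 knockout and 142 control cells) had Glrx at 82.5 and 54.1 CPM (log2 0.61, 0.20 to 1.01). Mature B or plasma-like cells (36 and 65 cells) had Txnrd1 at 30.2 and 14.9 CPM from 29 and 24 UMIs. The T, NK or innate lymphoid class (26 and 57 cells) had the highest control level of Txnrd1 of any named class, at 135 CPM in the knockout and 138 CPM in the control, from 52 and 86 UMIs.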

How the data were processed

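Per the submitters' processing notes, reads were processed with Cell Ranger 6.1.2 on mm10. The deposited matrices hold whole-number UMI counts per gene and barcode, not normalized. The sources used here do not give the annotation release, cell calling or strand setting. Kept barcodes had 500 or more genes and a mitochondrial share below 10%, and Scrublet doublets (scanpy 1.11.5) were removed at each library's own threshold, 52 from the knockout and 146 from the control. Both libraries were clustered together (2000 variable genes, without the members and listed genes, 30 components, 15 neighbours, Leiden resolution 1, leidenalg 0.10.2) and clusters named "-like" from markers, by thresholds set after the data were seen. UMIs were summed per class and library, given as CPM with exact Poisson intervals, and compared as a ratio with an exact binomial interval at 95%. These cover counting error only. No test was possible. Summing and calling were tested on simulated data. Named are all 9 members, for likeness the 3 measured genes of highest r, and of each gene list up to 6 genes per direction past 1.5-fold, with a few other list genes, chosen after their values were seen, as context. Members and lists were chosen with earlier results of these data known. Coordinates and coding sequences came from GENCODE vM21 (GRCm38, the build mm10) and promoters from RefSeq, where symbols of all 9 members matched. Alternatives covered scaling, floors, filters, doublets, clustering, labels and class weights.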

Additional observations from a re-analysis of the deposited data

Results flagged for a closer look

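Txnrd1 went opposite ways in 2 compared classes. It was higher in the knockout in dendritic cell-like cells, with a log2 ratio of 0.82, and lower in maturing neutrophil-like cells, at −0.70. With 1 library per genotype the difference between the classes was not tested.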

How the results depend on the processing

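No paired analysis was possible because each genotype has 1 library, and for the same reason no replicate could be left out. Over all kept cells 0 members passed 1.5-fold under each alternative run. Of member-class pairs 2 passed, and 0 did with a floor of 100 CPM, 1 with doublets kept, 1 at Leiden resolution 2, where no maturing neutrophil-like class was compared, and 0 with each cell labelled from its own markers. The other alternatives gave 2 or 3. One gene value reversed: Txnrd1 in maturing neutrophil-like cells became 0.29 with per-cell labels. Of 693 gene values 630 stayed within their counting interval and 657 kept their sign. These counts include the alternatives that only moved the level floor, which leave every ratio unchanged by design. The 21 tertile values with thinned cells stayed within theirs too, though the lowest dendritic cell-like tertile became −0.22 and the middle multipotent or lymphoid-primed one 0.01. Depth limits Txnrd2 and Txnrd3, both under the floor in all compared classes, and the dendritic cell-like class.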
